A study of Mus musculus with 18 samples.

Results

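Of the 101256 union peaks found by chromatin immunoprecipitation and sequencing (ChIP-seq) in mouse hearts, 5727 lay in promoters of long non-coding RNA (lncRNA) genes. These peaks were chosen by the deposited annotation alone: the peak was assigned to the promoter of a gene whose biotype is lncRNA, lay on chromosomes 1 to 19, was shorter than 5000 nt and did not belong to Trdn-as, the lncRNA disrupted in the study. They belonged to 3270 genes. A promoter peak lay within 5000 nt of the start of the nearest gene. In all, 5804 peaks were annotated to lncRNA promoters, of which 56 on the sex chromosomes, 16 of 5000 nt or more and 5 of Trdn-as were left out.

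Chromatin came from snap-frozen ventricles, with 2 adult hearts pooled per preparation, so that a library is not a single animal. Whether the 2 libraries of a genotype came from separate preparations is not given, and p-values then measure only the spread between these libraries, which may be technical. Pol II (RNA polymerase II, precipitated through its B1 subunit) and CTCF were each profiled in 2 libraries of WT, of Trdn-as KO and of Mettl3 KO hearts, with 1 IgG control library per genotype. Trdn-as KO mice carried a polyadenylation signal placed in exon 1 of the gene with Cas9 in embryonic stem cells and were backcrossed to C57BL/6. Mettl3 KO mice (Mettl3lox/lox:alphaMHC-MerCreMerpos) lost the RNA methyltransferase gene after tamoxifen only where the alphaMHC promoter drives the recombinase, that is in cardiomyocytes, while the other cells of the ventricle kept it. The labels give the controls as WT, whereas the methods name floxed mice given tamoxifen as controls for the Mettl3 deletion, so any effect of tamoxifen or of the recombinase cannot be told apart from that of the deletion here. The chromatin of all cell types was measured together, so a change in the share of a cell type and a change within it cannot be told apart.

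LncRNA genes are transcribed by Pol II from promoters that resemble those of protein-coding genes, although most are weaker, and many start on the opposite strand of a coding gene or next to its start. Pol II gathers near the start of a transcribed gene, so its ChIP signal there is read as a measure of promoter use. CTCF is a zinc-finger protein that binds a long DNA motif, the CTCF consensus, and anchors chromatin loops. ChIP-seq carries no strand, so a peak over a start shared by genes on opposite strands cannot be given to either of them.

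The values used here are reads per peak divided by a library factor and rounded by the authors. Per 1000 nt of peak they can be compared between peaks. The value of 1 read was 0.945 to 2.04 in the Pol II libraries, which held 1987602 to 4953511 reads in peaks, and 0.284 to 0.458 in the CTCF libraries with 6789494 to 10163630 reads. Trdn-as KO Pol II replicate 2 stood apart: it held the fewest reads, and 18.6% of its uniquely mapped reads lay in peaks, against 35.5 to 42.6% in the other 5. The strongest Pol II peak of Trdn-as itself had values of 530 and 595 in the WT, 140 and 100 in the Trdn-as KO and 503 and 491 in the Mettl3 KO libraries, so that both Trdn-as KO libraries were the lowest. The strongest peak of Mettl3 (177 to 240 in all 6) gives no check of its deletion. Each of the 4 Trdn-as KO libraries was at 0 over the 6 peaks of chromosome Y, where the WT and Mettl3 KO libraries summed to 223 to 326 for Pol II, so that sex and Trdn-as genotype cannot be told apart. All 6 cardiomyocyte markers had a promoter peak, with mean Pol II values of 625 to 10426. The 4 fibroblast markers (Col1a1, Col3a1, Dcn and Pdgfra) all had one too, and their summed Pol II value was 495 and 523 in the WT, 757 and 526 in the Trdn-as KO and 1083 and 1108 in the Mettl3 KO libraries. Skeletal muscle markers (3 of 4 with a peak) summed to 15 to 35 and liver markers (1 of 4) to 18 to 36.

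Sequence was examined at annotated starts, because 13 of 1449 promoter windows of member genes held an exact match to the CTCF consensus. The 10 member peaks that held a start with such a match had a median CTCF level of 88.1 per 1000 nt, against 36.7 at the 411 without. The windows are RefSeq promoters of the GRCm38.p6 build, from 250 bases before to 50 after a start, and were matched by symbol for 1140 genes. They are shown 5′ to 3′ on the strand of the gene, and capitals mark the match. The first 4 windows were picked for high CTCF at the start peak, among exact matches on either strand. Their CTCF level of 87.2 to 96.6 per 1000 nt thus follows from that choice, and their Pol II level was 5.62 to 13.5.
Tbx3os2 (chr5:119691169-119691468, minus strand): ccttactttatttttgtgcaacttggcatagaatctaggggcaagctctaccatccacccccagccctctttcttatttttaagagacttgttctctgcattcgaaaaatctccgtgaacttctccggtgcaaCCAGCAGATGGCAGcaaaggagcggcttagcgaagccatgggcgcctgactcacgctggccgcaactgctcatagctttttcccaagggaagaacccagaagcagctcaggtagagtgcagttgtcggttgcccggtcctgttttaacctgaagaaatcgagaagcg
Gm12320 (chr11:70755117-70755416, minus strand): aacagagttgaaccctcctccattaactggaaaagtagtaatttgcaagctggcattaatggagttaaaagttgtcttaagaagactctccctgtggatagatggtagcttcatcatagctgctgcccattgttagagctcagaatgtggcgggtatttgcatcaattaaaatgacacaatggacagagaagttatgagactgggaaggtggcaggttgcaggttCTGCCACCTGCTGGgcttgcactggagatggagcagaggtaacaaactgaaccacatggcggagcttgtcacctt
C330018A13Rik (chr5:116123364-116123663, plus strand): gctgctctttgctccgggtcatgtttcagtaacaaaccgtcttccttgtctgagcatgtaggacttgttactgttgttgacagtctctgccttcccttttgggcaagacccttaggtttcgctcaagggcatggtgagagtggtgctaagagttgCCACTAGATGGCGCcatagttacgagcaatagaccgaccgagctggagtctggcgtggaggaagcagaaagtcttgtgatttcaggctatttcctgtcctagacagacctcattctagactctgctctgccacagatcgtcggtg
E330013P04Rik (chr19:60144425-60144724, plus strand): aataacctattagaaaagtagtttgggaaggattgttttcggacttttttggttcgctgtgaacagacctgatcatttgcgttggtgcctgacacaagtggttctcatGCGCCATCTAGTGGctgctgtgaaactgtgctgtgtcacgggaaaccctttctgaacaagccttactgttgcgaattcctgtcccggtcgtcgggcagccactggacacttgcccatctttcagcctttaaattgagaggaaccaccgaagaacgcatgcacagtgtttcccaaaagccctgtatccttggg

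The next 3 windows belong to genes whose peaks differed between genotypes. Gm38293 held the CTCF consensus with 1 mismatch (capitals), while Dnm3os and AI506816 held no match with up to 1 mismatch and no TATAAA.
Gm38293 (chr1:180768607-180768906, minus strand): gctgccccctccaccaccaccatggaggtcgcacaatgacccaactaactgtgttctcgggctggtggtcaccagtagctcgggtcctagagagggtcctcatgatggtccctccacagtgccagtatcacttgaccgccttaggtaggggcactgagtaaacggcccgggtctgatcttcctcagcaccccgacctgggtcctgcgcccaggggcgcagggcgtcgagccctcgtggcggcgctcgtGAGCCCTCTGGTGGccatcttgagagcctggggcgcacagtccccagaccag
Dnm3os (chr1:162217373-162217672, plus strand): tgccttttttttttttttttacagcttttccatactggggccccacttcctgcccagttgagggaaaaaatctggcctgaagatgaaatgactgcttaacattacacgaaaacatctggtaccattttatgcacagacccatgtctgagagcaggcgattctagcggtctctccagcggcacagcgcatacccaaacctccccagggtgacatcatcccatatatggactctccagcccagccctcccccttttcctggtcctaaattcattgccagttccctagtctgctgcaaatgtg
AI506816 (chr5:23712618-23712917, minus strand): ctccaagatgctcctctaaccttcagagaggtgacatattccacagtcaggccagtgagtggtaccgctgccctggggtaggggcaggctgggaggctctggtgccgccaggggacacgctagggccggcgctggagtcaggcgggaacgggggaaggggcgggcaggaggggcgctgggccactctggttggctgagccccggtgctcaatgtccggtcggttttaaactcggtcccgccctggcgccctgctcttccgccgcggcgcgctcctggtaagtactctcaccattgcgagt

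The last pair are hosts of small nucleolar RNAs (snoRNAs) with 2 of the highest Pol II levels. Capitals mark TATAAA, whose first base is at position 221 of the Snhg8 window and 228 of the Snhg5 window, counted from 1 at the 5′ end. These windows held 30 and 36 CG dinucleotides. The windows of 5430416N02Rik and Gm12059 are not shown (Pol II levels of 367 and 362 per 1000 nt). They held 22 and 2 CG dinucleotides and no TATAAA on the gene strand.
Snhg8 (chr3:123508287-123508586, minus strand): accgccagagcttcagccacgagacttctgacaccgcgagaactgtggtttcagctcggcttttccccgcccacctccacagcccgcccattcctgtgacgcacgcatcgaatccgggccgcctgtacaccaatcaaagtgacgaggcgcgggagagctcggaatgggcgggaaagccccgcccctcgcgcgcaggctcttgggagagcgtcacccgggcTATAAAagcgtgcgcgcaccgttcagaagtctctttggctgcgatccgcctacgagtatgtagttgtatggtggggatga
Snhg5 (chr9:88522848-88523147, minus strand): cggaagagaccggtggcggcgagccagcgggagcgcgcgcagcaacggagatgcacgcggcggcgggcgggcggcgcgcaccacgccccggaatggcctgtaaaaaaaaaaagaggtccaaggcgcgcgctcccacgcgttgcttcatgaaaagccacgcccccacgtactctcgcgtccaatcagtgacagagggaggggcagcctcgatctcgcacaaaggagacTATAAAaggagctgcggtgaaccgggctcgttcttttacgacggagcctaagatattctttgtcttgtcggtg

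Across all windows of member genes, 0.897% held an exact match to the CTCF consensus on either strand, compared with 0.470% of 13184 windows of coding genes with a promoter peak and 0.335% of all 32851 windows. With up to 1 mismatch allowed, the shares were 3.86%, 3.44% and 2.28%. TATAAA, searched on either strand, occurred in 13.8% of member windows, 7.99% of coding windows and 13.6% of all windows. The median number of CG dinucleotides was 5 in member windows, 19 in coding windows and 7 in all. Where a member peak held its gene's start, the 10 peaks with an exact match had a median CTCF level of 88.1 per 1000 nt (interquartile range 72.4 to 95.9) and the 411 without had 36.7 (22.9 to 61.8). The same 10 peaks had a median Pol II level of 12.7, and the 411 had 52.3. When these peaks were split into 4 groups of 105 or 106 by Pol II level, the median CG count of the windows was 5, 6, 6 and 11, from the lowest group to the highest. The median CTCF level of the groups was 69.4, 24.7, 28.6 and 41.3. Since the peaks are a union over both antibodies, a peak with little Pol II could enter it through CTCF alone, so the level of the lowest group, and that of CTCF where Pol II is low in general, is partly set by how peaks were chosen.

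Most member peaks were short and lay away from the annotated start. Their median length was 437 nt (119 to 4747 nt), compared with 666 nt for 25702 coding promoter peaks chosen with the same limits. A total of 1059 peaks (18.5%) held the start of their gene, and the centre of 1907 (33.3%) lay within 1000 nt of it, while the median distance of the centre was 1932 nt. There were 1904 genes with 1 peak, 746 with 2 and 620 with 3 or more. The genes with the most were Gm15523 (13 peaks), Gm10435 and Gm44949 (10 each), and Gm16316, Gm20652 and ENSMUSG00000120364 (9 each). At the length limit, ENSMUSG00000120706 was just inside with 4747 nt and a mean Pol II value of 886 (187 per 1000 nt), and 2900089D17Rik just outside with 5026 nt and 806 (160 per 1000 nt).

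The GENCODE M21 annotation held 2785 member genes and types 40 of them as protein-coding. Of the 2785, 125 were divergent, with the start of a coding gene on the other strand within 1000 nt upstream. A further 952 overlapped a coding gene on the opposite strand and 155 on the same strand. The other 1553 met none of these rules and are called apart, though a coding gene may lie close by without overlap. The remaining 485 genes are not in that annotation. Only 272 genes had a symbol in the deposited table, 2516 more were named through GENCODE M21, and 482 are given by their Ensembl ID.

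Pol II was lower at lncRNA than at coding starts in each of the 6 libraries. Over the 1059 lncRNA peaks that held a start, the median Pol II value per 1000 nt was 51.9 to 66.4 by library, and over 9980 such coding peaks it was 131 to 186. The coding median was 2.33 to 3.07 times the lncRNA median, and the mean log2 ratio was 1.42 ± 0.14 (SD, n = 6, exact two-sided sign-flip permutation test p = 0.031, the smallest that 6 libraries allow). CTCF differed less. Its medians were 34.1 to 36.3 at lncRNA starts and 41.6 to 45.1 at coding starts, with a mean log2 ratio of 0.30 ± 0.02 (SD, n = 6, exact two-sided sign-flip permutation test p = 0.031, again the smallest possible). Both p-values measure how alike the 6 libraries rank these fixed peak sets, not the spread between genes. The mean of the IgG control libraries showed a gap of like size, with medians of 32.1 at lncRNA and 39.3 at coding starts (CTCF 34.3 and 42.8). The size factors bring IgG to the level of the other libraries, so only its gap between the sets can be read, and the part of background in the CTCF difference was not tested. Over all member peaks, the median levels per 1000 nt were 27.3 for Pol II and 25.3 for CTCF, compared with 48.7 and 30.2 at coding promoter peaks and 15.4 and 26.5 at 61723 peaks assigned to no promoter.

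**Figure D1:**
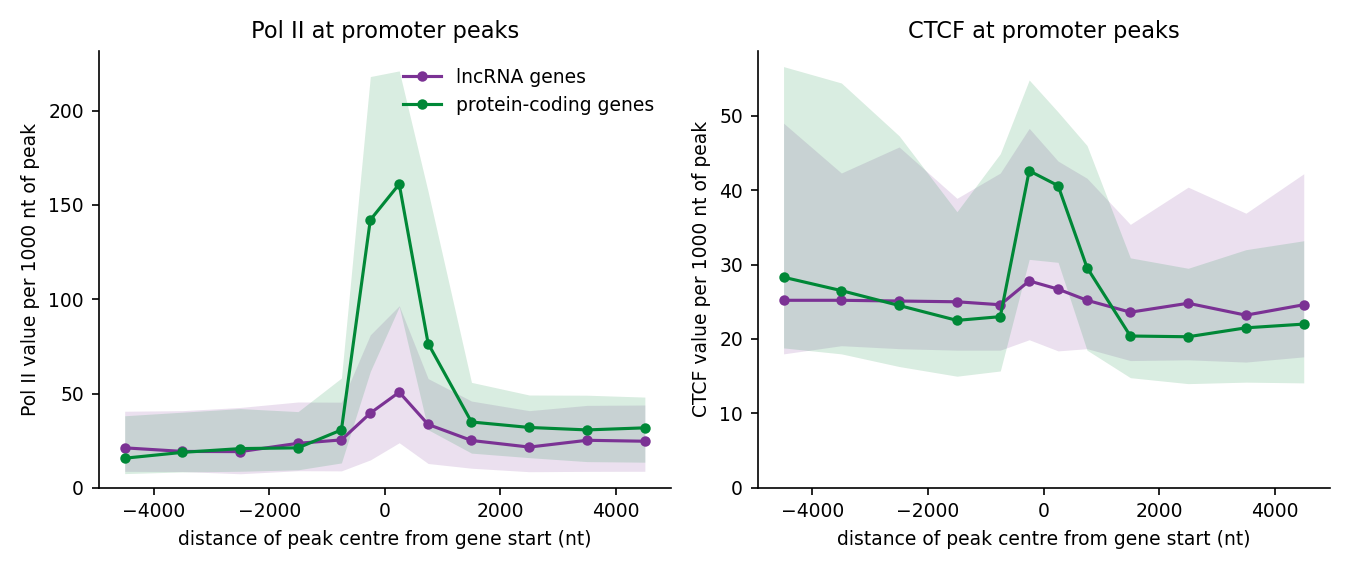
Median Pol II (left) and CTCF (right) value per 1000 nt of peak, averaged over 6 libraries, against the distance of the peak centre from the gene start in nt, for lncRNA and protein-coding genes, with shaded interquartile ranges. The lncRNA Pol II median reaches 50.7 just after the start and the coding median 161.

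The Pol II profile along lncRNA promoters had the same place of maximum as that of coding genes. Peaks centred 0 to 500 nt after the lncRNA start had a median of 50.7 per 1000 nt (interquartile range 23.9 to 96.5, 618 peaks), and those 0 to 500 nt before it had 39.6 (14.8 to 81.1, 677 peaks). Farther out, medians were 19.2 to 25.4 upstream of 500 nt and 21.6 to 33.6 downstream. The coding medians were 161 and 142 in the same pair of bins and 15.7 at 4000 to 5000 nt upstream. CTCF at lncRNA promoters stayed between 23.2 and 27.8 in all 12 bins, with its highest median in the 500 nt before the start.

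Levels differed with what lay next to the lncRNA. Among peaks centred within 1000 nt of the start, median Pol II per 1000 nt was 65.9 at divergent genes, 63.0 at genes not in GENCODE M21, 34.2 at genes apart, 32.9 at antisense and 30.3 at same-strand overlapping genes. Of the start-holding peaks, 88 belonged to genes with a coding start within 1000 nt, and their median Pol II level was 113 (interquartile range 45.6 to 211). The other 735 with a GENCODE M21 record had 48.6 (19.5 to 93.6), and the CTCF medians of the same sets were 38.2 and 34.2. Interquartile ranges overlapped, and no test was made. A total of 521 member peaks (9.10%) lay within 5000 nt of a peak annotated to a coding promoter.

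Part of the member peaks carried little of either factor. The limit on low values, 10 or more in 2 or more libraries of the antibody, was reached by 3275 members (57.2%) for Pol II and 3382 (59.1%) for CTCF. Both were reached by 2456 peaks (42.9%), Pol II alone by 819 (14.3%), CTCF alone by 926 (16.2%) and neither by 1526 (26.6%), whose median length was 186 nt. Neither was reached by 20.6% of coding promoter peaks and 31.5% of peaks assigned to no promoter. Against the IgG library of WT hearts, in RPM (reads scaled to the uniquely mapped reads of the library), the mean WT Pol II level was higher at 4721 members (82.4%), and more than 2 times higher at 3866 (67.5%). For CTCF these counts were 5577 (97.4%) and 5103 (89.1%). The median was 0.824 RPM for Pol II, 1.41 for CTCF and 0.309 for IgG. The share above WT IgG was 90.6% (Pol II) and 97.1% (CTCF) of coding promoter peaks. It was 72.8 and 98.1% of peaks assigned to no promoter.

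**Figure D2:**
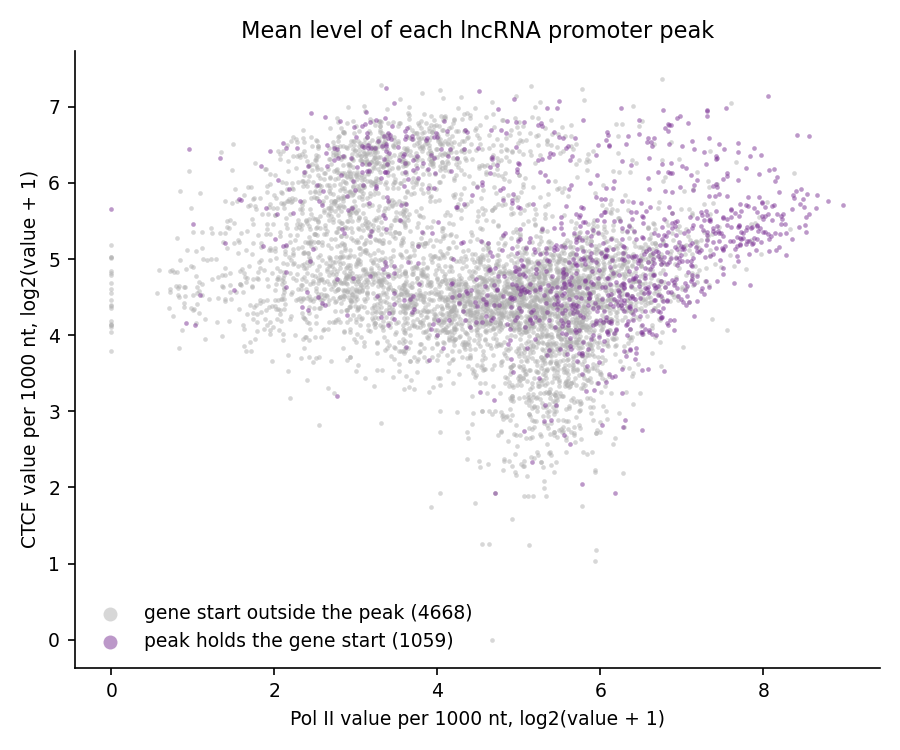
Mean CTCF against mean Pol II value per 1000 nt of peak over 6 libraries each, both as log2(value + 1), for the 5727 lncRNA promoter peaks. The 1059 peaks that hold the gene start reach higher Pol II levels than the others, with medians of 61.3 for Pol II and 34.3 for CTCF.

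The 10 highest Pol II levels were found at start-holding peaks, most of them of poorly described genes and 2 of snoRNA hosts. ENSMUSG00000121104 led with 503 per 1000 nt (485 and 482 for WT, 544 and 446 for Trdn-as KO, 571 and 594 for Mettl3 KO). Snhg8, whose introns carry a snoRNA, followed with 443 and library values of 842, 781, 890, 802, 963 and 1050 in the same order. Both lay far above the member median of 27.3 in every library. ENSMUSG00000120625 (403), ENSMUSG00000120575 (399), ENSMUSG00000120675 and E430024I08Rik (376 each), Snhg5 (371), 5430416N02Rik (367), 4732440D04Rik (365) and Gm12059 (362) completed the first 10. All 10 peaks held the annotated start, and that of 4732440D04Rik lies within 1000 nt of the start of Rb1cc1, an autophagy gene.

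The 10 highest CTCF levels went with Pol II levels from 8.89 to 265 per 1000 nt, on both sides of the member median of 27.3. Gm33682 led with 164 per 1000 nt (CTCF values of 171, 162, 205, 198, 197 and 202), and its Pol II level was 107. Gm11379 had 155, with Pol II at 8.89, and ENSMUSG00000120490 had 154, with Pol II at 34.5. Of the first 10, 4930597A21Rik (151), Gm38563 (146) and ENSMUSG00000120342 (140) held a gene start. Pol II per 1000 nt was 9.33, 21.7 and 265 at these 3 peaks, so that the last carried much of both factors. The other 4 were 6030440G07Rik (150), CT025671.1 (148), 4930524O08Rik (144) and 1700017L05Rik (140).

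Lists of lncRNAs with described roles held few members. Of 41 symbols of cardiac and muscle lncRNAs, 14 genes had 28 member peaks with a median Pol II level of 65.0 per 1000 nt, compared with 27.3 for all members. Highest by value, though not per 1000 nt, was Dleu2 (3952 nt, 258 per 1000 nt), a microRNA host whose start faces Trim13, with Pol II values of 979 and 1028 in the WT, 1043 and 914 in the Trdn-as KO and 1088 and 1074 in the Mettl3 KO libraries. Mir17hg, host of a growth-promoting microRNA cluster, had values of 373, 378, 388, 318, 461 and 464. Carmn, an enhancer-associated lncRNA of cardiac and smooth muscle, had 316, 338, 354, 297, 369 and 346, and Dubr, which takes part in muscle differentiation, had 281, 295, 336, 301, 405 and 391 at a peak of 1091 nt (307 per 1000 nt, above Dleu2). At Carmn, WT overlapped with Trdn-as KO. Both Mettl3 KO values of Mir17hg and Dubr lay above the other 4 without passing the test (log2 fold changes against WT of 0.30 and 0.47, adjusted p = 0.38 and 0.17).

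Lower in the list, Bvht, a lncRNA of cardiac lineage commitment, had Pol II values of 136, 102, 93, 75, 86 and 90 at a peak centred at -4609 nt from the start, and Mir155hg, host of an immune microRNA, had 94 to 170. Malat1, an abundant nuclear RNA, was represented by a peak at -3874 nt with 196, 210, 198, 134, 212 and 190. H19, an imprinted growth-restraining lncRNA, had a peak at -2879 nt with Pol II at 11 to 26 and CTCF at 164, 154, 170, 162, 158 and 147. Trp53cor1, Mir100hg and Morrbid had mean Pol II levels of 86.8, 75.8 and 51.8 per 1000 nt. None of these 7 genes passed the Pol II test against WT in either knockout. With 0.304% (Trdn-as KO) and 1.19% (Mettl3 KO) of all peaks called, this is no result about these genes. Among the 10 snoRNA hosts (18 peaks), Snhg8, Snhg5, Snhg6 and Epb41l4aos were highest, with 443, 371, 283 and 157 per 1000 nt, while the median of the list was 24.4, against 27.3 for all members. Of the imprinted list, Kcnq1ot1, Airn and Peg13 had start peaks with Pol II levels of 144, 242 and 141 and CTCF levels of 26.5, 42.5 and 86.2.

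The summed value of the member peaks was a small part of the autosomal signal. For Pol II it was 4.812 and 4.917% in the WT, 4.717 and 4.726% in the Trdn-as KO and 4.655 and 4.526% in the Mettl3 KO libraries. The genotypes did not overlap, but with 2 libraries against 2 the exact two-sided permutation test cannot go below 0.33, which it gave for each pair. The differences from WT were -0.14 and -0.27 percentage points. For CTCF the share was 5.667 to 5.746%, with exact permutation p of 0.67, 1 and 1.

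The 3 genotypes were compared pairwise for each antibody by limma on log2(value + 1) over all union peaks that passed the limit on low values, and a peak was called at an adjusted p below 0.05. The comparisons share libraries: both knockouts were set against the same WT pair. In each called peak, both libraries of 1 genotype lay beyond both of the other, but so they did in 33.5 to 48.4% of the tested members and 32.0 to 50.7% of all tested peaks, by comparison.

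**Figure D3:**
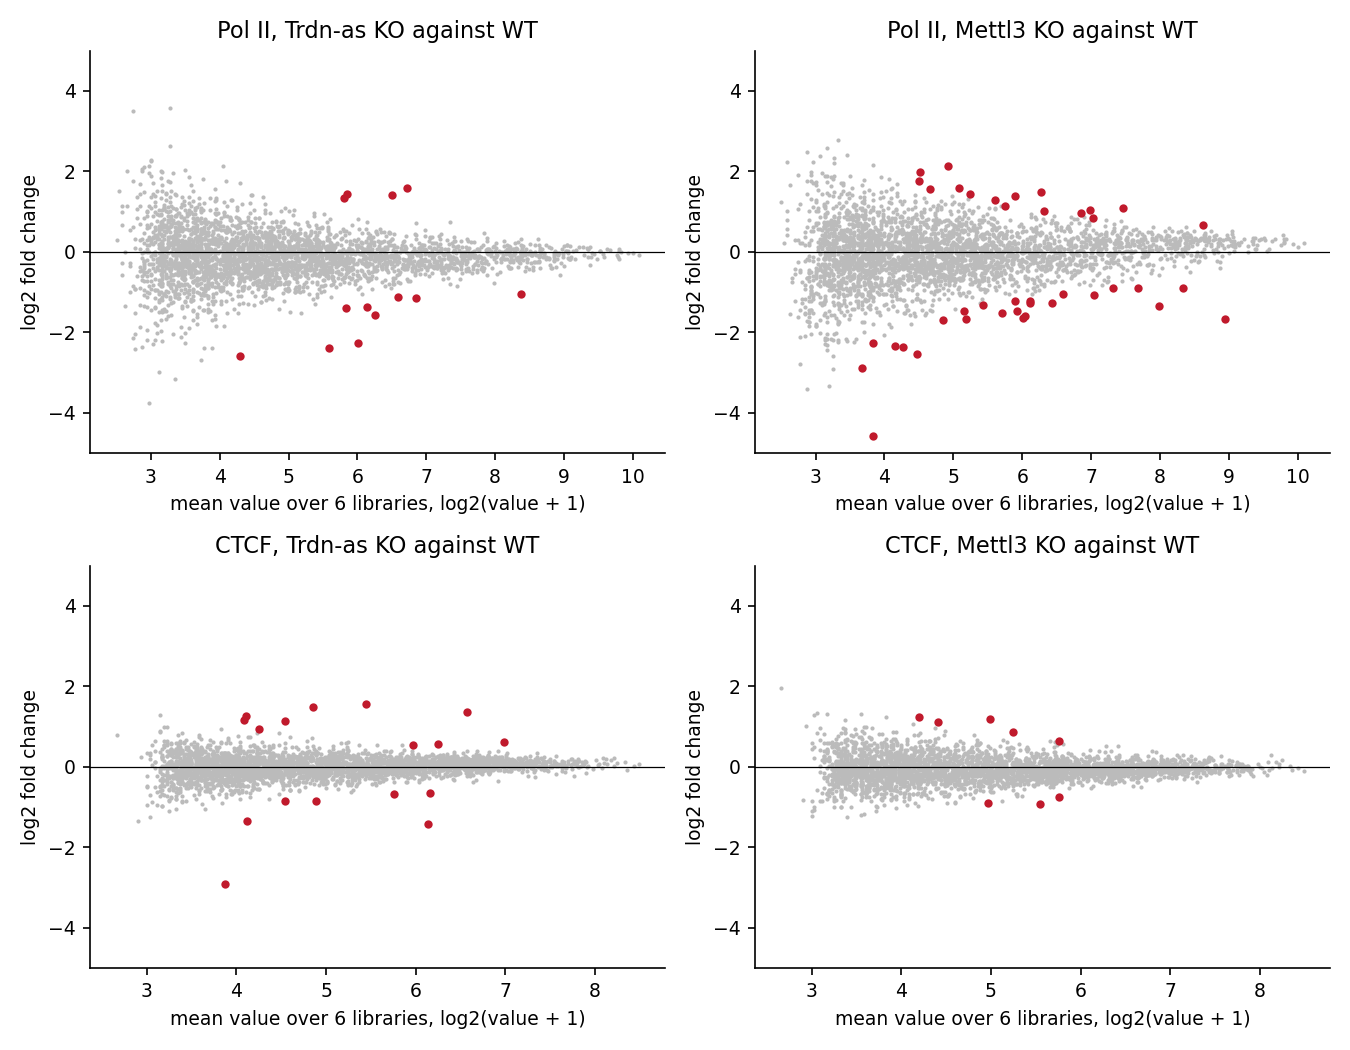
Log2 fold change of each tested lncRNA promoter peak against its mean value over 6 libraries, as log2(value + 1), for Pol II (top, 3275 peaks) and CTCF (bottom, 3382 peaks) in Trdn-as KO (left) and Mettl3 KO (right) against WT. Red points are the 13, 41, 17 and 8 peaks called by limma, and the spread widens at low values.

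In Trdn-as KO hearts Pol II rose at 4 lncRNA promoter peaks and fell at 9. These 13 calls are 0.397% of the 3275 members tested, against 0.304% of all 52655 peaks (0.0798% higher and 0.224% lower). At an unadjusted p below 0.05 there were 290 members (8.85%, against 7.70% of all peaks). The median log2 fold change was -0.10 in members and -0.07 in all peaks.

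The 4 peaks that rose belonged to Gm38293, 4933439K11Rik, AC141882.1 and Gm13943. At the start of Gm38293 (chr1:180595444-180597122) Pol II was 52 and 57 in the WT, 186 and 145 in the Trdn-as KO and 99 and 82 in the Mettl3 KO libraries. This is a log2 fold change of 1.58 (SE 0.26, adjusted p = 1.2e-04), and Mettl3 KO lay between the others. At 4933439K11Rik (chr1:172389816-172391410), antisense to the ciliary gene Cfap45, values were 50 and 50, 132 and 140, and 73 and 93 in the same order. Its log2 fold change was 1.42 (SE 0.27, adjusted p = 0.0014), and CTCF rose at this peak too, as described below for CTCF. AC141882.1 had 35 and 39 in the WT, 119 and 88 in the Trdn-as KO and 25 and 35 in the Mettl3 KO libraries (log2 fold change 1.45, SE 0.32, adjusted p = 0.016). Gm13943 had 30 and 42, 102 and 81, and 34 and 40 (1.33, SE 0.32, adjusted p = 0.035).

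Both peaks of ENSMUSG00000121240 fell. The peak over its start (chr11:90020436-90021427) had 118 and 132 in the WT, 32 and 20 in the Trdn-as KO and 44 and 35 in the Mettl3 KO libraries, a log2 fold change of -2.26 (SE 0.32, adjusted p = 3.6e-06) in Trdn-as KO and -1.64 (SE 0.32, adjusted p = 0.0017) in Mettl3 KO. It was 1 of 2 members called for Pol II in both knockouts against the shared WT libraries, the other being a peak of Gm43660 (150 and 145, 76 and 59, 74 and 69). Its neighbour had 79 and 73, 30 and 6, and 44 and 50, and lost its call without Trdn-as KO replicate 2 (log2 fold change -1.31, adjusted p = 0.2). The strongest called peak was assigned to ENSMUSG00000120701, but was centred at -3209 nt from that start and lay 276 nt from the promoter peak of Ankrd1, a coding gene of cardiac stress. The peak had Pol II values of 424 and 457 in the WT, 245 and 187 in the Trdn-as KO and 345 and 331 in the Mettl3 KO libraries (log2 fold change -1.04, SE 0.18, adjusted p = 3.4e-04). Dnah2os, opposite to a dynein heavy chain gene, fell from 124 and 103 to 70 and 20 (log2 fold change -1.56, SE 0.33, adjusted p = 0.0076), and the lower value came from the library that stood apart. The remaining peaks that fell were 1 more of Gm43660 and 1 each of ENSMUSG00000119955, Gm5533 and ENSMUSG00000121259.

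How many peaks were called depended on single libraries. Without Trdn-as KO replicate 1 the count was 128 (3 higher, 125 lower; 1908 of all peaks), without replicate 2 it was 3 (1 higher, 2 lower; 42 of all peaks), and without WT replicate 1 or 2 it was 0 (118 and 144 at an unadjusted p below 0.05). The 3 calls left without replicate 2 were the start peak of ENSMUSG00000121240 (-1.93, adjusted p = 0.038), ENSMUSG00000120701 (-0.84, adjusted p = 0.02) and Gm38293 (1.75, adjusted p = 0.026). Scaling by uniquely mapped reads moved the median of all peaks from -0.07 to -0.65, and then 8 members were called, all lower. The 4 peaks that rose kept positive fold changes on that scale (0.98 at Gm38293 and 0.83 at 4933439K11Rik).

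**Figure D4:**
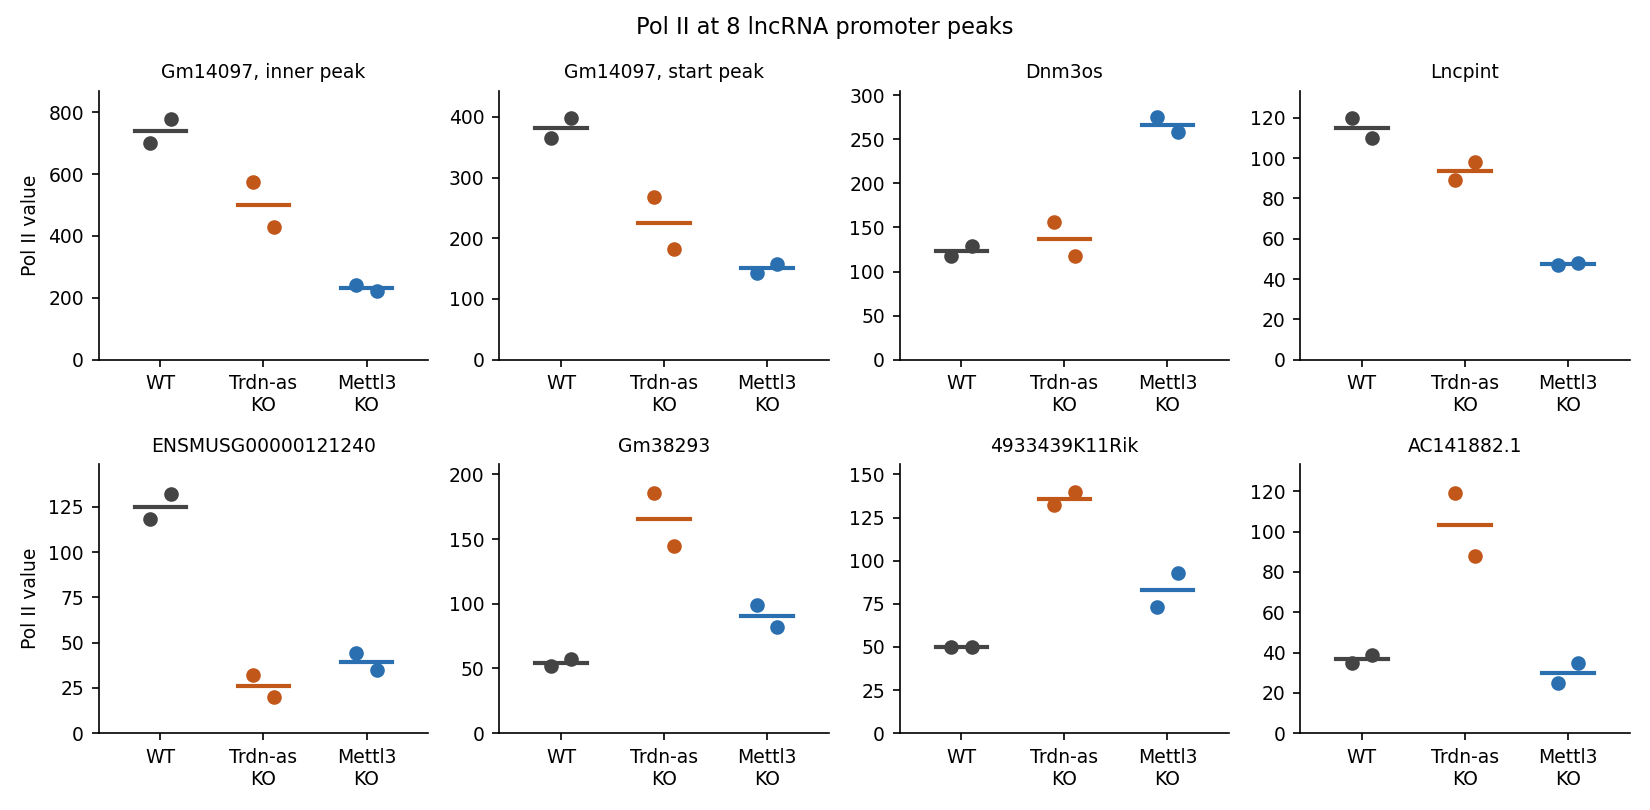
Pol II value in each library (points) and genotype mean (lines) at 8 lncRNA promoter peaks called in at least 1 comparison. The upper row shows the inner and the start peak of Gm14097, Dnm3os and Lncpint, which differed in Mettl3 KO, and the lower row 4 peaks that differed in Trdn-as KO.

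In Mettl3 KO hearts Pol II rose at 16 members and fell at 25, which is 1.25% of those tested, against 1.19% of all peaks (0.712% higher and 0.482% lower). Among members 492 had an unadjusted p below 0.05 (15.0%, against 15.5% of all). The median log2 fold change was -0.01 in members, 0.08 in all peaks and 0.20 in coding promoter peaks.

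Gm14097, which lies opposite Shld1, a gene of DNA break repair, had 3 of its 5 member peaks called and lower. The peak inside the gene (chr2:132534284-132538107), 104 nt from the promoter peak of Shld1, had 701 and 778 in the WT, 574 and 428 in the Trdn-as KO and 241 and 222 in the Mettl3 KO libraries. The start peak (chr2:132538357-132541180) had 365 and 398, 268 and 183, and 143 and 158. Both Mettl3 KO libraries were the lowest at each, with log2 fold changes against WT of -1.67 (SE 0.17, adjusted p = 2.4e-10) and -1.34 (SE 0.20, adjusted p = 1.9e-05). The upstream peak had 54 and 72, 32 and 14, and 27 and 13 (-1.68, SE 0.40, adjusted p = 0.018). The other 2 peaks, of 119 and 209 nt, did not reach the limit on low values. The inner peak kept its call without either WT library (adjusted p = 0.01 and 0.024) and lost it without either Mettl3 KO library (0.058 and 0.16).

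Of the cardiac and muscle list, 1 peak rose and 2 fell. Dnm3os, the antisense precursor of a microRNA cluster active in fibroblasts and mesenchyme, had Pol II values of 118 and 129 in the WT, 156 and 118 in the Trdn-as KO and 275 and 258 in the Mettl3 KO libraries at its start (chr1:162044184-162045836). This is a log2 fold change of 1.10 (SE 0.22, adjusted p = 0.0019). The summed value of the 4 fibroblast markers was also higher in both Mettl3 KO libraries (1083 and 1108 against 495 and 523), as was that of the 4 smooth muscle and pericyte markers (576 and 541 against 327 and 411), although within it Pdgfrb (410 and 405 against 217 and 257) and Rgs5 (69 and 62 against 35 and 56) were higher and Acta2 (59 and 45 against 45 and 57) and Myh11 (38 and 29 against 30 and 41) overlapped with WT, and their part in the result was not tested. Lncpint, a lncRNA induced by stress signals, had 120 and 110, 89 and 98, and 47 and 48 at a peak centred at -1311 nt (chr6:31198371-31199097; log2 fold change -1.26, SE 0.27, adjusted p = 0.0052). The adjoining peak of 2210408F21Rik, left out for its length of 5969 nt, had 1653, 1566, 1605, 1323, 1548 and 1607. The genotypes overlapped in that larger peak.

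Chaer1, a regulator of hypertrophic gene programs, had 6 member peaks, of which 1 was called. That peak, 2263 nt into the gene, had 78 and 82, 77 and 47, and 31 and 37 (log2 fold change -1.22, SE 0.31, adjusted p = 0.029). Its start peak had 89 and 113, 100 and 59, and 61 and 62 and did not pass (-0.70, adjusted p = 0.21). Over the 23 tested peaks of the list, the median log2 fold change was -0.02 in Mettl3 KO (0.08 in all peaks), 3 were called (1.19% of all peaks were) and 12 had an unadjusted p below 0.05 (15.5% of all peaks had). In Trdn-as KO the median was -0.29 (-0.07 in all peaks), 0 were called by limma (0.304% of all peaks were) and 2 had an unadjusted p below 0.05 (7.70% of all peaks had).

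Among the other peaks that rose in Mettl3 KO were 3 of genes known by ID only. ENSMUSG00000120798 had 41 and 45 in the WT, 72 and 53 in the Trdn-as KO and 132 and 114 in the Mettl3 KO libraries (log2 fold change 1.49, SE 0.28, adjusted p = 0.0013). ENSMUSG00000120485 had 10 and 13, 29 and 14, and 64 and 45 (2.14, SE 0.43, adjusted p = 0.0024), and ENSMUSG00000120655 had 68 and 105, 129 and 96, and 175 and 176 (1.05, SE 0.24, adjusted p = 0.015). Trdn-as KO values of these 3 lay between those of the other genotypes or next to WT. Gm16006, antisense to the repressor gene Zhx2, rose from 41 and 31 to 103 and 88 (1.39, SE 0.31, adjusted p = 0.0095), and Gm48646 from 15 and 16 to 45 and 53 (1.60, SE 0.38, adjusted p = 0.018). Kank4os rose from 12 and 14 to 47 and 35 (1.57, SE 0.43, adjusted p = 0.047) and was 1 of 2 called peaks among 91 tested with antisense or opposite-strand names (1.19% of all peaks were called), the other being Dnm3os.

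Several peaks were nearly empty in Mettl3 KO. Gm10550, antisense to Thap4, had 26 and 20 in the WT, 16 and 18 in the Trdn-as KO and 0 in both Mettl3 KO libraries (adjusted p = 8.7e-04). Against a floor of 3 reads per library (3.63 and 4.80), this is at least 5.46-fold lower than WT. Gm29137 had 39 and 35, 25 and 18, and 6 and 5 (log2 fold change -2.55, SE 0.48, adjusted p = 0.0013). The WT means of Gm10550 and Gm29137 were 23.0 and 37.0, against a median value of 24.3 over the tested members. ENSMUSG00000120513 fell by 1.59 on the log2 scale (SE 0.30, adjusted p = 0.0015), with 42 and 27 in the Mettl3 KO libraries. Members of the uncharacterised Gm and Rik models made up 24 of the 41 calls (8 higher, 16 lower, of 2273 tested, with 1.19% of all peaks called), and genes known by ID only made up 12 (6 and 6, of 623 tested).

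The Mettl3 KO count was not held when any 1 of the 4 libraries was left out. Without WT replicate 1 or 2 only 1 peak was called, and without Mettl3 KO replicate 1 or 2 the count was 0 (372 and 280 at an unadjusted p below 0.05). Scaled by uniquely mapped reads, 2 members were called, both lower, and a fit to these 2 genotypes alone called 227 (148 higher, 79 lower; 4861 of all peaks). Without the variance trend or without the limit on low values it was 0 (389 and 557 at an unadjusted p below 0.05).

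Between the knockouts, 52 members differed in Pol II, 19 higher and 33 lower in Trdn-as KO. This is 1.59% of the tested members, against 1.50% of all peaks (0.355% higher and 1.15% lower), and median log2 fold changes were -0.12 and -0.16. The Gm14097 inner peak (1.10, SE 0.17, adjusted p = 1.6e-05) and Dnm3os (-0.97, SE 0.22, adjusted p = 0.0087) were among them. AC141882.1 had 2 peaks higher in Trdn-as KO. The second of these had 25 and 47 in the WT, 72 and 57 in the Trdn-as KO and 28 and 13 in the Mettl3 KO libraries (log2 fold change 1.69, SE 0.37, adjusted p = 0.0081). ENSMUSG00000120528 had 23 and 27, 23 and 16, and 61 and 66 (-1.67, SE 0.37, adjusted p = 0.0081). Gm13708 had 37 and 51, 32 and 24, and 67 and 80 (-1.37, SE 0.33, adjusted p = 0.017). WT lay next to Trdn-as KO at ENSMUSG00000120528 and between the knockouts at Gm13708. Snhg16 was the only called snoRNA host of 9 tested peaks, with 223 and 213, 178 and 140, and 280 and 245 (-0.73, SE 0.20, adjusted p = 0.045), and was not called against WT in either knockout. Without Trdn-as KO replicate 1 the count was 450 (22 higher, 428 lower; 9539 of all peaks), without replicate 2 it was 6 (5 higher, 1 lower; 129 of all peaks), and without Mettl3 KO replicate 1 or 2 it was 0 (337 and 304 at an unadjusted p below 0.05). Scaling by uniquely mapped reads moved the median of all peaks to -0.60 and called 1 higher and 5 lower.

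In Trdn-as KO hearts CTCF rose at 10 members and fell at 7. The 17 calls are 0.503% of 3382 members tested, against 0.587% of all 60649 peaks (0.348% higher and 0.239% lower). Medians of the log2 fold change were 0.02 in members and 0.04 in all peaks, and 353 members (10.4%, against 10.2% of all) had an unadjusted p below 0.05.

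The largest rise by value was at the start of AI506816 (chr5:23916462-23918193). CTCF there was 58 and 66 in the WT, 150 and 169 in the Trdn-as KO and 62 and 61 in the Mettl3 KO libraries, a log2 fold change of 1.35 (SE 0.11, adjusted p = 1.2e-06). Pol II at the same peak was 89 and 119, 149 and 112, and 96 and 118 and did not pass (0.33, adjusted p = 0.83). The RefSeq window of AI506816 shown above held no match to the CTCF consensus with up to 1 mismatch. Gm15852 (chr1:169766755-169767535), centred at -5328 nt from the start and antisense to Ccdc190, had CTCF values of 25 and 27, 76 and 82, and 25 and 21 (1.57, SE 0.15, adjusted p = 8.4e-06). Gm31881 had 17 and 14, 50 and 41, and 23 and 23 (1.49, SE 0.18, adjusted p = 9.1e-05). In these peaks both Trdn-as KO libraries stood well above the other 4.

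At 4933439K11Rik, where Pol II rose as well, CTCF was 112 and 101 in the WT and 163 and 165 in the Trdn-as KO libraries, and both Mettl3 KO libraries lay within the WT range (log2 fold change 0.62, SE 0.09, adjusted p = 0.0018). CTCF also fell at the start peak of Gm43660, where Pol II fell, with values of 28 and 28, 14 and 16, and 21 and 26 (-0.86, SE 0.18, adjusted p = 0.038). Gm38979, opposite the skeletal muscle calcium channel gene Ryr1, had 11 and 11, 31 and 25, and 10 and 9 (1.27, SE 0.22, adjusted p = 0.0066). Gm17322 had 17 and 15, 35 and 38, and 13 and 15 (1.14, SE 0.19, adjusted p = 0.0038).

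**Figure D5:**
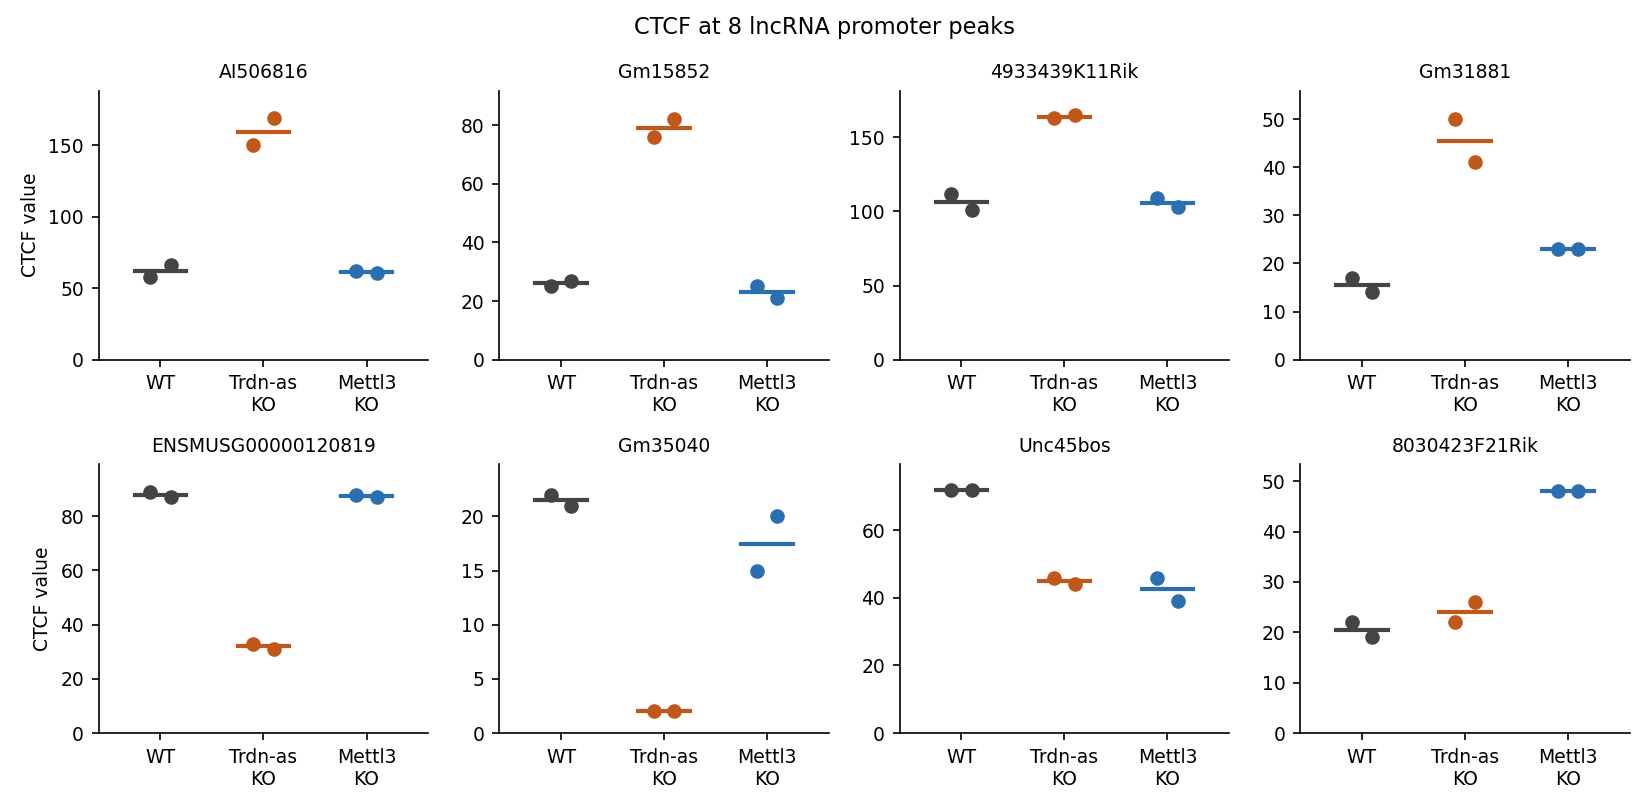
CTCF value in each library (points) and genotype mean (lines) at 8 lncRNA promoter peaks called in at least 1 comparison. The upper row shows 4 peaks higher in Trdn-as KO, and the lower row ENSMUSG00000120819 and Gm35040, lower in Trdn-as KO, Unc45bos, lower in both knockouts, and 8030423F21Rik, higher in Mettl3 KO.

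The strongest losses were at ENSMUSG00000120819 and Gm35040. ENSMUSG00000120819 (chr9:114244558-114245412) had CTCF values of 89 and 87 in the WT, 33 and 31 in the Trdn-as KO and 88 and 87 in the Mettl3 KO libraries, a log2 fold change of -1.43 (SE 0.12, adjusted p = 1.1e-06). At the start of Gm35040 (chr7:79185371-79185770) the values were 22 and 21, 2 and 2, and 15 and 20 (-2.91, SE 0.27, adjusted p = 4.4e-06). At both peaks the Trdn-as KO pair lay below the other 4 libraries. Unc45bos, divergent from the myosin chaperone gene Unc45b, had 72 and 72, 46 and 44, and 46 and 39, and was the only member called for CTCF in both knockouts against the shared WT pair (Trdn-as KO -0.67, SE 0.13, adjusted p = 0.02; Mettl3 KO -0.75, SE 0.13, adjusted p = 0.03). Scpep1os had 84 and 82, 58 and 47, and 75 and 76 (-0.66, SE 0.12, adjusted p = 0.013). Gm3364 had 39 and 37, 20 and 21, and 29 and 26 (-0.86, SE 0.16, adjusted p = 0.013), with Mettl3 KO in between. Unc45bos and Scpep1os were the 2 calls among 89 tested peaks with antisense or opposite-strand names (0.587% of all peaks were called). Leaving out any of the 4 libraries reduced the count from 17 to 0, with 290 to 381 members at an unadjusted p below 0.05.

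In Mettl3 KO hearts CTCF rose at 5 members and fell at 3. This is 0.237% of the members, against 0.185% of all peaks (0.0989% higher and 0.0857% lower), with 590 members (17.4%, against 15.7% of all) at an unadjusted p below 0.05 and medians of -0.07 and -0.06. At 8030423F21Rik (chr5:52773650-52774345) CTCF was 22 and 19 in the WT, 22 and 26 in the Trdn-as KO and 48 and 48 in the Mettl3 KO libraries (log2 fold change 1.19, SE 0.16, adjusted p = 0.009). Gm32679, Gm16508, ENSMUSG00000120391 and Gm48022 also rose, by 1.24, 1.11, 0.86 and 0.64 on the log2 scale (adjusted p = 0.026, 0.049, 0.035 and 0.049). Besides Unc45bos, CTCF fell at Gm16181, antisense to Nfkbil1, with 57 and 64, 43 and 48, and 35 and 28 (-0.93, SE 0.15, adjusted p = 0.022). It also fell at 5033406O09Rik, with 41 and 39, 27 and 33, and 21 and 21 (-0.90, SE 0.16, adjusted p = 0.035). The 8 calls were lost without any 1 of the 4 libraries (259 to 590 at an unadjusted p below 0.05), and scaling by uniquely mapped reads gave 9 higher and 3 lower.

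Set against each other, the knockouts differed in CTCF at 39 members, 27 higher and 12 lower in Trdn-as KO. This is 1.15% of the members, against 1.37% of all peaks (0.948% higher and 0.417% lower), and the medians were 0.08 and 0.09. AI506816 (adjusted p = 1.0e-06), Gm15852 (1.74, SE 0.15, adjusted p = 2.0e-06), ENSMUSG00000120819 (-1.42, SE 0.12, adjusted p = 1.0e-06) and Gm35040 (-2.61, SE 0.27, adjusted p = 1.8e-05) led both directions. Gm44067 had 123 and 125 in the WT, 94 and 100 in the Trdn-as KO and 140 and 140 in the Mettl3 KO libraries (-0.53, SE 0.09, adjusted p = 0.0052). WT lay between the knockouts there. Platr26 had 8 and 8, 5 and 5, and 15 and 15, and passed the limit on low values only through the Mettl3 KO pair where it was high, so its call is not independent of that limit. Gm47450 had 11 and 12, 30 and 24, and 11 and 8 (1.42, SE 0.23, adjusted p = 0.0027), and 2700054A10Rik had 42 and 32, 24 and 29, and 46 and 48 (-0.81, SE 0.16, adjusted p = 0.017). Without any 1 of the 4 knockout libraries the count was 0 (280 to 631 at an unadjusted p below 0.05), and scaling by uniquely mapped reads gave 10 higher and 11 lower.

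Of the remaining lists, the miRNA hosts (6 tested peaks for each antibody), the imprinted genes (8 each) and the developmental antisense genes (7 for Pol II, 6 for CTCF) had 0 calls by limma in all 6 comparisons. At an unadjusted p below 0.05 they had 0 to 2 peaks in any comparison. With 0.185 to 1.50% of all peaks called and 7.70 to 18.8% at such a p, these counts say nothing particular of the lists. The 20 CTCF peaks tested of the cardiac and muscle list had 0 calls in all 3 comparisons, with 4, 4 and 1 at an unadjusted p below 0.05. Over all peaks 0.587, 0.185 and 1.37% were called and 10.2, 15.7 and 18.8% had such a p, so that 0 calls among so few peaks is no result about the list. Neither Kcnq1ot1, Airn nor Peg13 was called for either antibody, and the upstream H19 peak kept CTCF values between 147 and 170 in all 6 libraries.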

How the data were processed

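Pol II and CTCF were measured by ChIP-seq in 2 libraries per genotype (WT, Trdn-as KO, Mettl3 KO), with 1 IgG library per genotype. The submitters' processing notes name Trimmomatic 0.39, STAR 2.7.11b, Picard 3.1.1 and DESeq2 1.36.0. The authors aligned reads to GRCm39 with Ensembl 109 genes, discarded duplicates and reads that were spliced, mapped to several places or came from ribosomal or mitochondrial sequence, called and merged peaks of all libraries, counted reads per merged peak with featureCounts and divided them by DESeq2 size factors; the deposited signal is rounded to whole numbers, so no count model was used. Input libraries (3) were not used here.

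The value of 1 read per library was estimated from the spacing of the values (tested on 5 simulated libraries, largest error 0.0172%) and gives depth, floors and RPM; floors cover counting error only. Since size factors set IgG to the level of the other libraries, the level of IgG was compared with Pol II and CTCF only as RPM, scaled to uniquely mapped reads.

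Genotypes were compared with limma 3.58.1 in R 4.3.3 on log2(value + 1), with a variance trend and all 6 libraries of an antibody in 1 fit, over peaks that reached 10 in 2 or more libraries; fold changes are on that scale and understate low peaks. P-values were Benjamini-Hochberg adjusted over all tested peaks, with a threshold of 0.05. They measure the spread between 2 libraries per genotype, which may be repeat precipitations of 1 chromatin preparation. On simulated data with 200 peaks changed by a log2 fold of 2 in Trdn-as KO against WT, 79.8% were recovered among 51831 tested Pol II peaks, with 7 false calls, and 98.5% among 60197 tested CTCF peaks, with 0 false calls. Apart from the changed peaks, the simulated libraries of an antibody shared 1 mean per peak and 1 spread. Trdn-as KO Pol II replicate 2, which stood apart, was thus not modelled, and smaller folds were not tried.

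The members and lists were chosen with earlier results of these data known. Named were, per comparison, up to 6 non-overlapping called peaks in each direction by adjusted p, the 10 highest levels per 1000 nt of each antibody, the 5 genes with the most peaks (6 with a tie), and of each list the 4 highest genes (the cardiac list whole). Gm5533, ENSMUSG00000121259, Gm43660's start peak, the upstream Gm14097 peak, Chaer1's called peak, Kank4os and Snhg16 were named after their values were seen, as was the 2210408F21Rik peak. Symbols missing from the table and positions relative to coding genes came from GENCODE M21 by gene ID, and promoter windows from RefSeq (GRCm38.p6) by symbol; no coordinates were converted. The alternatives were other scaling, filter, pseudocount, libraries in the fit, a replicate block, no variance trend, no sex chromosomes, and leaving out each library. A few peaks that the rule names are not reported here. Python 3.11.15, pandas 2.3.3, numpy 2.4.6, scipy 1.17.1 and matplotlib 3.10.9 were used.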

Additional observations from a re-analysis of the deposited data

How the results depend on the processing

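Counts of called members are given in the order Trdn-as KO against WT, Mettl3 KO against WT, Trdn-as KO against Mettl3 KO, and were 13, 41 and 52 for Pol II and 17, 8 and 39 for CTCF. Scaling by uniquely mapped reads gave 8, 2 and 6 for Pol II and 21 for the last CTCF comparison. Testing all union peaks without the limit on low values gave 0, 0 and 0 (405, 557 and 676 at an unadjusted p below 0.05) and 4, 0 and 4 for CTCF (737 for the 0). A fit without the variance trend gave 0, 0 and 1 (255 and 389 for the zeros) and 9, 0 and 10 (568). Only the compared genotypes gave 2, 227 and 2, and 2, 0 and 2 (596). A pseudocount of 5 gave 65 and 90 for the last 2 Pol II comparisons. The remaining counts under these settings, and all without chromosomes X and Y, stayed within 1.5 times. Leaving out 1 library gave 0 to 128, 0 to 1 and 0 to 450 for Pol II and 0 throughout for CTCF, where the lone library of a genotype is assumed to vary like the others. The cause of these differences was not tested. The replicate numbers did not pair the samples (correlations of deviations -0.00, -0.00 and -0.01 for Pol II and -0.24, 0.01 and -0.01 for CTCF); with the replicate number as a block, CTCF counts were 0 (496 at an unadjusted p below 0.05) in Mettl3 KO against WT and 16 between the knockouts, and the other 4 counts stayed within 1.5 times.

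Of 726 refits of the 66 fold changes named from the comparisons, 294 stayed past the threshold, 432 did not, and 0 changed sign. All 66 stayed past it with a pseudocount of 5 and without chromosomes X and Y, 56 with the replicate block, 35 with the other scaling, 20 with only the compared genotypes, 16 without the trend and 8 without the limit on low values. When 1 library was left out, 27 of 264 stayed.

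The differences in the share of signal, recomputed without each library after seeing the data, ranged in percentage points from -0.19 to -0.09, -0.34 to -0.21 and 0.07 to 0.20 for Pol II. For CTCF they ranged from -0.06 to 0.00, -0.03 to 0.01 and -0.05 to 0.01, changing sign. Depth limits what low peaks can show: 1 read is worth up to 2.04 in Pol II libraries, and 26.6% of members reached the limit for neither antibody.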
